A study of Mus musculus with 12 samples.

Results

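The genes described here are 8 members of the ubiquitin system of heart muscle, followed in mouse hearts with and without ischemia-reperfusion (IR) injury. They are the polyubiquitin gene Ubb, the ubiquitin-binding autophagy receptor gene Sqstm1 (p62), and 6 genes of ubiquitin ligases: Stub1 (CHIP), Trim63 (MuRF1), Trim55 (MuRF2), Trim54 (MuRF3), Fbxo32 (atrogin, also called MAFbx) and Fbxo30 (MUSA1). They were taken by name from the expression tables, which listed 52858 genes, and all 8 were found once each and passed the filter on low values. RNA was sequenced from 12 hearts, 3 in each of 4 groups. C57-non-IR and C57-IR hearts came from C57BL/6J mice, and Slit2-non-IR and Slit2-IR hearts from mice overexpressing the secreted guidance protein Slit2 (Slit2-Tg), which carry a full-length human cDNA driven by the CMV promoter rather than by a heart-specific one and were founded by injecting oocytes of a C57 by CBA cross. All mice were male and 3 to 5 months old, and all hearts were removed and perfused ex vivo in a Langendorff system. In the IR hearts flow was stopped globally for 20 min and then restored for 40 min, and the non-IR hearts were perfused for 80 min in all. The sample labels give the genotype, while exposure to IR follows from the title letters, matched to the groups of the methods.

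Ubiquitin is a small protein that is attached to other proteins as a chain, through an activating enzyme (E1), a conjugating enzyme (E2) and a ligase (E3) that chooses the target. Ubb encodes it as head-to-tail repeats and responds to stress, whereas Rps27a encodes ubiquitin fused to a ribosomal protein. In striated muscle the MuRF proteins are ligases bound to the sarcomere and microtubules, atrogin and MUSA1 are the target-choosing F-box subunits of SCF ligases, and CHIP is a ligase that works with the heat shock chaperones. p62 binds ubiquitin chains and hands the tagged cargo to autophagosomes. Trim63 and Fbxo32 are best known as the atrogenes of wasting muscle, which FOXO transcription factors and glucocorticoids activate.

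The 250 bases before the start sites of Ubb, Fbxo30 and Trim63 are shown because Ubb and Fbxo30 had the largest mean IR differences among the 8 genes, and because Trim63 is the classic FOXO and glucocorticoid target. They are RefSeq promoters of build GRCm38.p6, written 5′ to 3′ on the strand of the gene (plus in each case), at chr11:62550921-62551170 for Ubb, chr10:11281337-11281586 for Fbxo30 and chr4:134314870-134315119 for Trim63. Capitals mark matches to the motifs searched on both strands.
Ubb: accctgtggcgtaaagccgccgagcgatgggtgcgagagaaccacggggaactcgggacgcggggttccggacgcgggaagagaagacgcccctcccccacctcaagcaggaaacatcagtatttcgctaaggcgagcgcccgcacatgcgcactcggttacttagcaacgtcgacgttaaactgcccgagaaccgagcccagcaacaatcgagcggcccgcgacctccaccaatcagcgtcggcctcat
Fbxo30: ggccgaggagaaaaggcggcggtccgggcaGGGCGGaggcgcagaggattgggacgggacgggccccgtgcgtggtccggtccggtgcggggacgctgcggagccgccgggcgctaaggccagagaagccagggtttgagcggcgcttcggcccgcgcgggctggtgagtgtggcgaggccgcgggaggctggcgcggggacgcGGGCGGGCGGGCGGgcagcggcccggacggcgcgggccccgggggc
Trim63: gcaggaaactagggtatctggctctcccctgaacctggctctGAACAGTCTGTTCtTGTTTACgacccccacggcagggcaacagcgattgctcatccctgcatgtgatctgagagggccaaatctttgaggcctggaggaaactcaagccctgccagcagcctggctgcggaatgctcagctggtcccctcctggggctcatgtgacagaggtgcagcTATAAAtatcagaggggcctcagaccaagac
The motifs searched were the heat shock element pairs GAANNTTC and TTCNNGAA, the FOXO motif GTAAACA, the antioxidant response element TGACNNNGC, the SP1 box GGGCGG, the TATA box TATAAA and the glucocorticoid half-site pair GNACA and TGTNC with 3 bases between. In windows reaching from 250 bases before to 50 bases after the start site, they occurred in 7.86%, 8.52%, 3.65%, 12.4%, 35.7%, 13.6% and 0.475% of all 32851 promoters. RefSeq promoters were matched for 6 of the 8 genes, those of Ubb, Sqstm1, Stub1, Trim63, Trim54 and Fbxo30. The Trim63 window held the glucocorticoid pair 208 bases before the start site, the FOXO motif on the opposite strand 194 bases before it, next to that pair, and a TATA box 31 bases before it. No other member's window held the FOXO motif or the glucocorticoid pair. The Fbxo30 window, in which 80.4% of the 250 bases shown were G or C against a median of 52.4% over all promoters, held 5 SP1 boxes, of which those 46, 42 and 38 bases before the start site overlap and the last, 4 bases before it, runs past the stretch shown. The Ubb stretch shown held no match. A second, downstream Ubb promoter of the annotation held an antioxidant response element and 2 SP1 boxes. The Stub1 window also held 5 SP1 boxes, and that of Sqstm1 held 3 and a TATA box. Stub1 and Trim54 each had 1 heat shock element pair, 123 and 147 bases before the start site. A match is a run of letters and was not tested as a binding site.

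Counting error was small for these genes. The libraries held between 16601154 and 24841291 reads on genes, and the least covered member, Fbxo30, had 336 to 1046 reads, so that counting error alone was at most 5.46% of a value. Defining cardiomyocyte transcripts (Myh6, Tnnt2, Tnni3 and 5 others) summed to between 21675 and 28665 FPKM (fragments per kilobase of transcript, scaled to library depth) in every library. The summed atrial markers (7 genes) lay between 21.7 and 89.0 FPKM in C57-non-IR, 87.5 and 234 in C57-IR, 41.7 and 108 in Slit2-non-IR, and 68.5 and 1716 in Slit2-IR hearts, the highest value being that of Slit2-IR replicate 1. The 7 blood markers summed to between 8.44 and 17.3 FPKM in C57-non-IR and between 1.47 and 6.92 FPKM in C57-IR hearts, which did not overlap, and to between 4.53 and 49.3 FPKM in Slit2-non-IR and 1.99 and 13.2 FPKM in Slit2-IR hearts. The part of the atrial and blood markers in the IR differences below was not tested. The 11 skeletal muscle markers summed to at most 20.2 FPKM except in that library (51.2), with Myh4 at 0 in every library, and the 6 lung markers to at most 12.3. In every group the library numbered 1 stood apart from the other two. By a chi-square of the reads, averaged over genes, the pairs holding it differed by 35.89 to 54.34, and the pairs numbered 2 and 3, the closest in each group, by 8.657 to 39.53. The 7 adipose markers summed to between 97.0 and 223 FPKM. Replicate 1 had the lowest sum in 3 groups (97.0 FPKM in C57-IR, 100.1 in Slit2-non-IR, 97.1 in Slit2-IR). In C57-non-IR replicate 1 the sum was 168 FPKM, but 6 of the 7 markers were at 0, more than in any other library. Member results are therefore also given for the libraries numbered 2 and 3 alone, 2 per group, a comparison chosen after the values were seen. Mitochondrial genes took 19.7% to 26.0% of reads. The mouse Slit2 row stood between 0.085 and 0.813 FPKM in all groups and does not measure the human transgene, so it gives no check of the genotype. In RNA from heart tissue of many cell types, fewer cells of a type and less RNA per cell cannot be told apart.

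Per transcript length, the 8 genes spanned a range from a mean of 280.4 FPKM for Ubb to 5.84 FPKM for Fbxo30 over the 12 libraries, which placed them between rank 161 and rank 5141 of all genes. Ubb was the most abundant in all 12 libraries. Trim54 (mean 148 FPKM) and Sqstm1 (146 FPKM) followed and did not differ in level, Trim54 being the higher in 6 of 12 libraries. Trim63 (66.4 FPKM) was below Sqstm1 and above Stub1 in all 12 libraries. Stub1 (28.0 FPKM) and Trim55 (23.8 FPKM) overlapped, with Stub1 the higher in 10 of 12 libraries. Trim55 exceeded Fbxo32 (16.2 FPKM), and Fbxo32 exceeded Fbxo30, in all 12 libraries, although the ranges of each pair overlapped between libraries. The classic atrogene Fbxo32 was thus expressed at a lower level than every other ligase gene except Fbxo30. Within the MuRF family, Trim54 supplied a mean of 59.0% to 65.1% of the summed FPKM in the 4 groups, Trim63 25.6% to 30.3% and Trim55 9.35% to 10.7%.

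**Figure D1:**
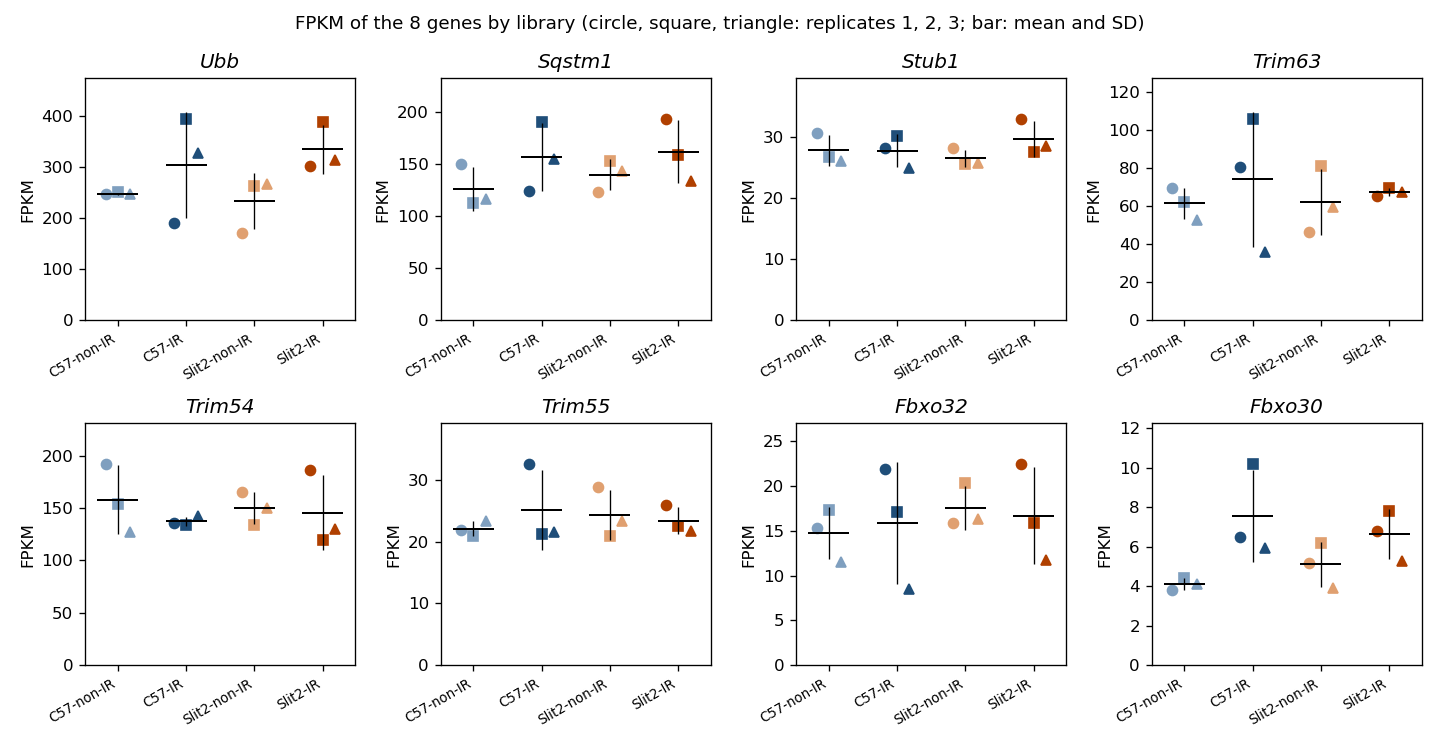
FPKM of each of the 8 genes in the 12 libraries, by group. Symbols are single hearts, horizontal bars group means and vertical lines SD (n = 3). Fbxo30 in C57-IR and Ubb in Slit2-IR hearts lie wholly above their own non-IR group, and Trim63 in C57-IR hearts is spread from 35.8 to 106 FPKM.

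The members were first compared between IR and non-IR hearts. The largest differences were those of Fbxo30 in C57BL/6J hearts (0.71 on the log2 scale) and of Ubb in Slit2-Tg hearts (0.54), both toward higher values after IR, whereas Trim63, Trim54, Trim55, Fbxo32 and Stub1 differed by no more than 0.18 in either genotype. None of the 8 genes passed the adjusted threshold of 0.05 in limma's moderated test (log2 of FPKM + 1, Benjamini-Hochberg over 15240 genes). In C57BL/6J hearts 1 of the 8 genes had an unadjusted p under 0.05, and in Slit2-Tg hearts 0 of 8. A replicate block was then added to limma's fit of all 12 libraries. It therefore also covered the C57BL/6J hearts, which the replicate numbers were not taken as pairing. In Slit2-Tg hearts 2 of the 8 genes then had an unadjusted p under 0.05, and none passed the adjusted threshold. They were Ubb, with an unadjusted p of 0.0142 and an adjusted p of 0.214, and Fbxo30, with 0.0266 and 0.284. With limma-voom on the reads recovered from the FPKM values, 0 passed the adjusted threshold in either genotype and 1 had an unadjusted p under 0.05 in each. Over all genes tested, 0.459% passed the adjusted threshold in C57BL/6J and 0.525% in Slit2-Tg hearts, and 8.96% and 11.2% were under the unadjusted one. The median log2 fold change of the 8 genes was 0.15 in C57BL/6J hearts, with 6 positive and 2 negative, and 0.15 in Slit2-Tg hearts, with 5 positive and 3 negative. Over all genes tested these medians were 0.0015 and 0.0053. The counts of signs include values near 0 that turned under another scaling. In the mean over both genotypes 0 of 8 genes passed the adjusted threshold and 1 of 8 the unadjusted one (0 and 2 by limma-voom), with a median of 0.11, 6 positive and 2 negative. From the libraries numbered 2 and 3 alone, 0 of 8 genes passed the adjusted threshold in any of these 3 comparisons, against 1.15% of all genes in C57BL/6J, 0.164% in Slit2-Tg hearts and 2.83% in the mean. Those under the unadjusted one were 3, 1 and 3 of 8, against 12.8%, 10.9% and 18.2%.

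Fbxo30 (chr10:11281330-11298052, plus strand, mm10) encodes MUSA1, the F-box subunit that BMP signalling holds down in skeletal muscle. Its values were 3.80, 4.39 and 4.12 FPKM in C57-non-IR and 6.48, 10.2 and 5.91 FPKM in C57-IR hearts. All 3 C57-IR values were above all 3 C57-non-IR values, with replicate 2 the highest of the 12 libraries. Groups with this order, higher after IR, were found for 6.75% of all genes tested. The mean FPKM was 1.84 times that of non-IR hearts, and the fitted log2 fold change was 0.71 (SE 0.20, 95% interval 0.28 to 1.14, unadjusted p = 0.0041 and adjusted p = 0.187 by limma). In Slit2-Tg hearts Fbxo30 was at 5.19, 6.18 and 3.91 FPKM without IR and at 6.82, 7.80 and 5.29 FPKM after IR. These groups overlapped, although the IR heart was the higher in all 3 same-numbered pairs, and the log2 fold change was 0.33 (SE 0.20, adjusted p = 0.599 by limma, 0.284 with the replicate block). Taken as the mean over both genotypes, 6 hearts against 6, the log2 fold change was 0.52 (SE 0.14, interval 0.21 to 0.82), with an unadjusted p of 0.0033 and an adjusted p of 0.072 by limma. From the libraries numbered 2 and 3 alone the values were 0.74 in C57BL/6J, 0.32 in Slit2-Tg hearts and 0.53 in the mean (adjusted p = 0.337, 0.733 and 0.224). In that mean comparison 3.49% of all genes passed the adjusted threshold and 15.9% the unadjusted one.

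Ubb (chr11:62551171-62553213, plus strand) was at 248, 250.4 and 247 FPKM in C57-non-IR hearts, a spread of 0.782% of the mean (SD). After IR the C57BL/6J hearts gave 190.3, 395 and 327 FPKM, 1 below and 2 above every non-IR value. The log2 fold change was 0.23 (SE 0.25, adjusted p = 0.935 by limma), and it was 0.0075 without C57-IR replicate 2 and 0.53 without replicate 1. In Slit2-Tg hearts Ubb was at 170.4, 264 and 267 FPKM without IR and at 302, 389 and 313 FPKM after IR, so the groups did not overlap, as was the case, higher after IR, for 8.65% of all genes tested. The log2 fold change there was 0.54 (SE 0.25, interval -0.01 to 1.09, unadjusted p = 0.054 and adjusted p = 0.455 by limma), and it was 0.33 without Slit2-non-IR replicate 1. The mean over both genotypes was 0.38 (SE 0.18, adjusted p = 0.322 by limma). Without C57-IR replicate 1, the IR heart with the lowest Ubb, it was 0.54 with an adjusted p of 0.0486 by limma, and without C57-IR replicate 2 it was 0.27. Both low values, those of C57-IR and Slit2-non-IR replicate 1, came from libraries numbered 1 with low adipose sums, and the part of this was not tested. From the libraries numbered 2 and 3 alone, Ubb gave 0.53 in C57BL/6J, 0.40 in Slit2-Tg hearts and 0.46 in the mean, with unadjusted p values of 0.00487, 0.0194 and 0.00158 and adjusted p values of 0.153, 0.354 and 0.0531 by limma.

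Rps27a, the fusion gene, was between 26.4 and 42.8 FPKM in the 6 non-IR hearts and between 25.9 and 42.5 FPKM in the 6 IR hearts, so the groups overlapped. Its mean log2 fold change after IR was 0.08 (SE 0.11, adjusted p = 0.821 by limma), and it was -0.0118 when totals outside mitochondrial genes were set equal.

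Sqstm1 (chr11:50199366-50210827, minus strand), whose protein p62 also feeds the NRF2 pathway by binding KEAP1, was at 149.5, 112 and 116 FPKM in C57-non-IR and 124, 189.5 and 154 FPKM in C57-IR hearts. In Slit2-Tg hearts it was at 123, 152 and 143 FPKM without IR and 193, 158 and 133 FPKM after IR. The groups overlapped in both genotypes. The log2 fold changes were 0.30 (SE 0.18) in C57BL/6J and 0.20 (SE 0.18) in Slit2-Tg hearts, with adjusted p values of 0.751 and 0.776 by limma. The first value was 0.15 without C57-IR replicate 2 and 0.45 without replicate 1. The second value was 0.06 without Slit2-IR replicate 1, the library with the high atrial sum, and the part of those markers in it was not tested. The mean over both genotypes was 0.25 (interval -0.03 to 0.53, adjusted p = 0.395 by limma). With libraries 2 and 3 of each group alone, the values were 0.58 in C57BL/6J hearts (unadjusted p = 0.00233, adjusted p = 0.109 by limma) and -0.02 in Slit2-Tg hearts (adjusted p = 0.965).

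Trim63 (chr4:134315120-134329629, plus strand), whose protein MuRF1 marks sarcomeric proteins for degradation, had the widest range of the 8 genes, its highest library being 2.96 times its lowest. Its C57-IR values were 80.7, 106 and 35.8 FPKM, which include the highest and the lowest of the 12 libraries, against 69.5, 62.3 and 52.9 FPKM in C57-non-IR hearts. The Slit2-Tg hearts gave 46.6, 81.0 and 59.4 FPKM without IR and 65.4, 69.8 and 67.7 FPKM after IR. The CV (SD over mean) was thus 48.0% in C57-IR but 3.22% in Slit2-IR hearts, a difference in spread that was not tested. The log2 fold changes after IR were 0.14 (SE 0.32) in C57BL/6J and 0.15 (SE 0.32) in Slit2-Tg hearts. The 95% interval of the mean over both genotypes reached from 0.781-fold to 1.57-fold. Without C57-IR replicate 3 the C57BL/6J value was 0.59, and without replicate 2 it was -0.18.

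Trim54 (chr5:31116712-31137630, plus strand), for the MuRF3 that stabilises microtubules, was at 192, 154 and 127 FPKM in C57-non-IR and at 136, 134 and 142 FPKM in C57-IR hearts. In Slit2-Tg hearts it was at 165, 134 and 150.2 FPKM without IR and 187, 119.8 and 130.3 FPKM after IR. Its log2 fold changes after IR were -0.18 (SE 0.18) in C57BL/6J and -0.06 (SE 0.18) in Slit2-Tg hearts. By limma the unadjusted p values were 0.330 and 0.730, and the adjusted ones 0.921 and 0.951. The Slit2-Tg value was -0.25 without Slit2-IR replicate 1 and 0.062 without replicate 2. Trim55 (chr3:19644474-19692421, plus strand), for MuRF2 at the titin kinase of the sarcomere, stood between 21.0 and 23.4 FPKM in C57-non-IR hearts and at 32.7, 21.3 and 21.6 FPKM in C57-IR hearts. The first of these was the highest of the 12 libraries, and without that heart the log2 fold change went from 0.15 to -0.04. In Slit2-Tg hearts Trim55 ranged from 21.0 to 28.8 FPKM without IR and from 21.8 to 26.0 FPKM after IR. Its mean log2 fold change was 0.05, with an interval from 0.871-fold to 1.24-fold.

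Fbxo32 (chr15:58175879-58214892, minus strand), for the F-box protein atrogin, showed a similar scatter to that of Trim63. It was at 15.3, 17.3 and 11.6 FPKM in C57-non-IR hearts and at 21.9, 17.2 and 8.46 FPKM in C57-IR hearts. The Slit2-Tg hearts gave 15.9, 20.3 and 16.4 FPKM without IR and 22.5, 15.8 and 11.8 FPKM after IR. In each genotype the IR hearts included values both above and below the whole non-IR group. The log2 fold changes were 0.02 (SE 0.31) and -0.10 (SE 0.31), and the mean of -0.04 had an interval from 0.700-fold to 1.35-fold. Without Slit2-IR replicate 1, which had the highest value, the Slit2-Tg value was -0.33, and without replicate 3, which had the lowest, it was 0.11.

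Stub1 (chr17:25830636-25833361, minus strand) was the steadiest member, with the smallest ratio of highest to lowest library (1.33). CHIP, its product, tags chaperone-bound clients for the proteasome or, with BAG3, for autophagy. Its 12 values lay between 24.9 and 33.1 FPKM, at 30.8, 26.8 and 26.1 in C57-non-IR, 28.2, 30.3 and 24.9 in C57-IR, 28.2, 25.6 and 25.8 in Slit2-non-IR, and 33.1, 27.6 and 28.5 in Slit2-IR hearts. The log2 fold changes after IR were -0.0040 in C57BL/6J and 0.16 in Slit2-Tg hearts (SE 0.11 each, adjusted p = 0.998 and 0.658 by limma). The interval of the mean over both genotypes, from 0.941-fold to 1.18-fold, was the narrowest of the 8. Stub1 overlaps Jmjd8 on the opposite strand (153 to 328 reads in a library), and whether reads were counted by strand is not given in the sources used here.

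**Figure D2:**
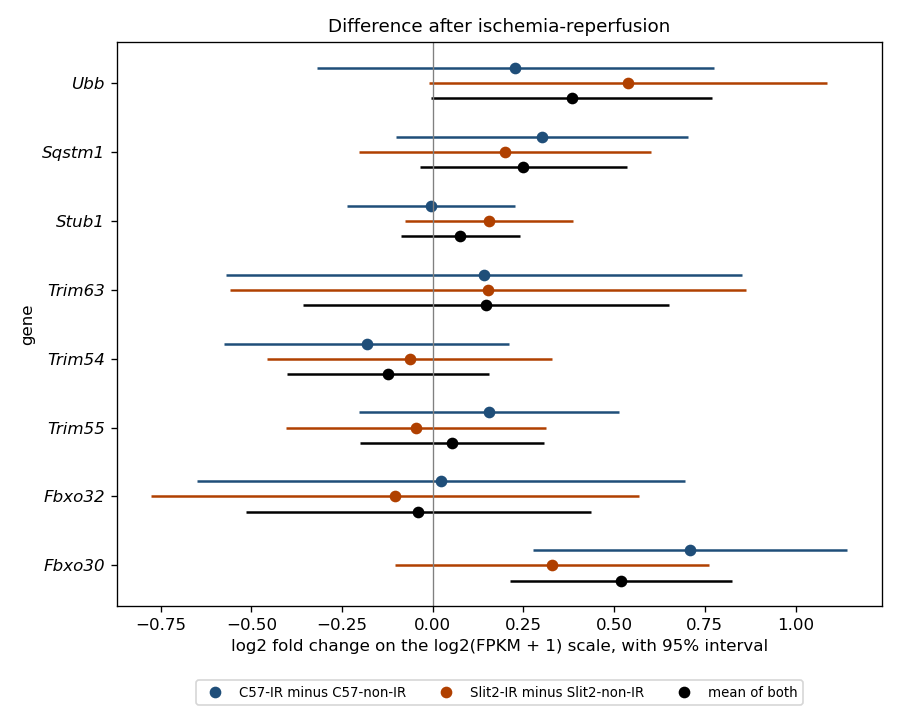
Log2 fold change after IR of the 8 genes (x axis, log2(FPKM + 1) scale), in C57BL/6J hearts, in Slit2-Tg hearts and as the mean of both. Points are fitted values and lines 95% intervals from limma. The lines of Fbxo30 exclude 0 in C57BL/6J hearts and in the mean before adjustment. Every line of Ubb, the MuRF genes, Fbxo32, Stub1 and Sqstm1 crosses 0.

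The effect of Slit2 was compared next, first without IR and then after it. For no member was the difference between genotypes past either threshold of limma's test. Without IR the log2 fold changes ran from -0.12 for Ubb to 0.25 for Fbxo32, with 4 positive and 4 negative. After IR they ran from -0.14 for Fbxo30 to 0.19 for Ubb, with 6 positive and 2 negative. These orders rest on single libraries, since Ubb was 0.096 without IR on leaving out Slit2-non-IR replicate 1, and -0.11 after IR on leaving out C57-IR replicate 1, while Fbxo30 after IR was 0.073 on leaving out C57-IR replicate 2. In each comparison 0 of 8 genes passed the adjusted threshold and 0 of 8 had an unadjusted p under 0.05, by limma and by limma-voom alike, against 0.0394% and 0.0459% of all genes at the adjusted threshold and 3.19% and 3.16% at the unadjusted one. No member had groups that did not overlap, which 9.2% of all genes had without IR and 6.47% after it. Trim63 differed least, by -0.0086 without IR and 0.0015 after IR, but with intervals from 0.607-fold to 1.63-fold and from 0.611-fold to 1.64-fold. For Stub1 the intervals were tighter, from 0.814-fold to 1.12-fold without IR and from 0.909-fold to 1.25-fold after it. From the libraries numbered 2 and 3 alone, 0 of 8 genes passed the adjusted threshold in either comparison, and 1 of 8 without IR (Sqstm1, 0.37, unadjusted p = 0.021 and adjusted p = 0.999 by limma) and 0 of 8 after IR were under the unadjusted one, against 3.85% and 4.85% of all genes.

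Whether the response to IR differed with genotype was tested by the interaction term, the IR difference in Slit2-Tg minus that in C57BL/6J hearts. It was 0.31 (SE 0.35) for Ubb and -0.38 (SE 0.28) for Fbxo30, with unadjusted p values of 0.397 and 0.198 by limma. Without C57-IR replicate 1 the Ubb value was 0.0054, and without C57-IR replicate 2 the Fbxo30 value was -0.17. For the remaining 6 genes it lay between -0.20 and 0.16. With 0 of 8 genes under either threshold, against 0% of all genes at the adjusted and 1.86% at the unadjusted one, Fbxo30 and Ubb were not shown to respond differently in the 2 genotypes. The intervals ran from 0.501-fold to 2.02-fold for Trim63, 0.725-fold to 2.12-fold for Ubb and 0.474-fold to 1.77-fold for Fbxo32. Each of these leaves room for a 2-fold difference. That of Fbxo30, from 0.502-fold to 1.17-fold, reached nearly as far. Over libraries 2 and 3 of each group, 0 of 8 genes passed the adjusted threshold for the interaction and 1 had an unadjusted p under 0.05, against 3.26% of all genes. This was Sqstm1, at -0.61 (unadjusted p = 0.011, adjusted p = 1 by limma), against -0.10 in all 12 libraries.

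**Figure D3:**
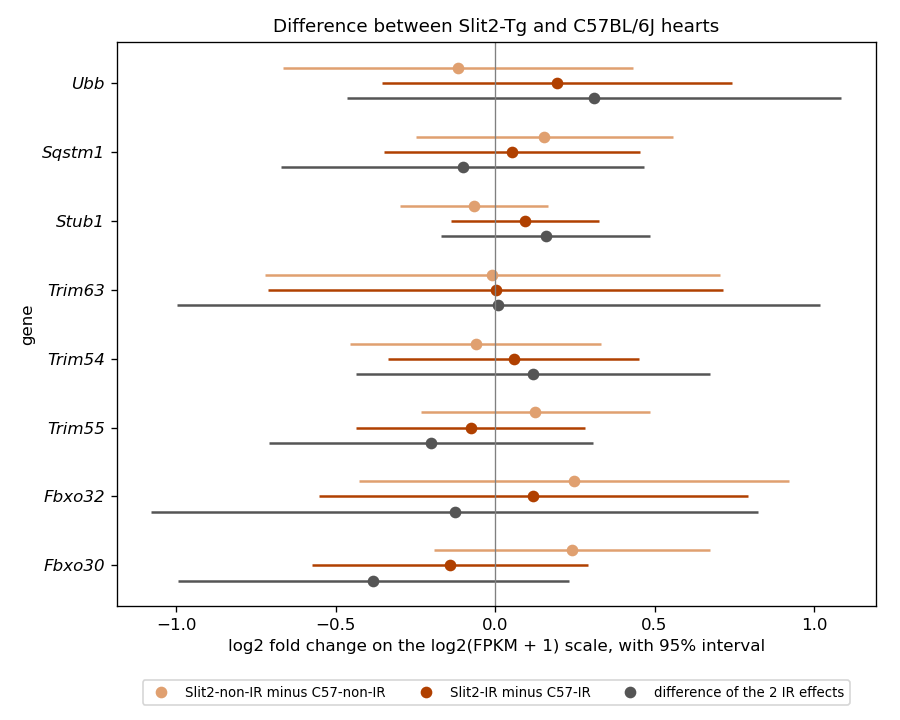
Log2 fold change between Slit2-Tg and C57BL/6J hearts without and after IR, and the interaction (x axis, log2(FPKM + 1) scale), for the 8 genes. Points are fitted values and lines 95% intervals from limma, and all 24 lines cross 0.

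The rest of the pathway was followed with lists of genes, using the mean IR difference over both genotypes. Among the chaperone-assisted autophagy genes, 2 of 10 rose, namely those for the co-chaperone BAG3 and its partner HSC70 (Hspa8), and 0 fell, against 3.49% of all genes that passed in either direction. Bag3, which joins CHIP and HSC70 to p62-bound cargo, was between 57.1 and 90.6 FPKM in the 6 non-IR hearts and between 102 and 194 in the 6 IR hearts, a log2 fold change of 0.87 (SE 0.16, adjusted p = 0.0123 by limma). Hspa8 was between 246 and 315 FPKM without IR and between 337 and 533 after it (0.82, SE 0.12, adjusted p = 0.0047). For both genes no IR heart overlapped a non-IR heart, as for 2.23% of all genes in that direction. With the replicate number as a block over all libraries, both also passed within Slit2-Tg hearts. The adjusted p values by limma were 0.0377 for Bag3 (0.0957 without the block) and 0.046 for Hspa8 (0.0505 without it). That block also covered the C57BL/6J hearts, which were not taken as paired.

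Of the 27 deubiquitinase genes, 2 rose and 0 fell, against the same 3.49% of all genes. Tnfaip3, for the ubiquitin-editing enzyme A20 that restrains NF-κB, was between 0.642 and 1.25 FPKM in the non-IR hearts and between 3.22 and 7.08 FPKM in the IR hearts. It rose in both genotypes, by 1.76 in C57BL/6J (SE 0.23, adjusted p = 0.0143 by limma) and by 1.67 in Slit2-Tg hearts (SE 0.23, adjusted p = 0.0181), and its interaction was -0.08 (unadjusted p = 0.806). These calls within a genotype were lost (adjusted p from 0.0572 to 0.0956) without any of the hearts compared except C57-IR replicate 1 and Slit2-IR replicate 3, respectively, while that for the mean (1.71, SE 0.16, adjusted p = 0.00057) held without any library. Otud1, for a deubiquitinase of the OTU family, was between 34.9 and 64.4 FPKM without IR and between 68.7 and 229.8 FPKM after it, with C57-IR replicate 2 the highest, as for Fbxo30, Ubb and Trim63. Its mean log2 fold change was 1.47 (SE 0.29, adjusted p = 0.0188 by limma), and the adjusted p was 0.0547 without C57-non-IR replicate 2 and 0.0508 without Slit2-IR replicate 1.

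The list of genes for FOXO, insulin and atrophy signals gave 2 that rose of 25 and 0 that fell, against 3.49% of all genes. It had 13 positive and 12 negative values. At the unadjusted threshold, which 15.9% of all genes passed, 3 were higher and 5 lower. Irs2, for an insulin receptor substrate, was between 2.15 and 4.24 FPKM in non-IR hearts and between 11.9 and 38.4 FPKM in IR hearts. It rose by 2.43 in C57BL/6J (SE 0.42, adjusted p = 0.0424 by limma) and by 2.67 in Slit2-Tg hearts (SE 0.42, adjusted p = 0.0257). These calls were lost without any of 9 and of 7 of the 12 libraries (adjusted p up to 0.176 and 0.122), while that for the mean (2.55, SE 0.30, adjusted p = 0.0017) held without any library. Gadd45a, a stress gene that is also raised in atrophying muscle, had a mean log2 fold change of 0.83 (SE 0.17, adjusted p = 0.0217 by limma), and the adjusted p lay between 0.0539 and 0.0605 on leaving out Slit2-IR replicate 1, Slit2-non-IR replicate 2, or either of C57-non-IR replicates 1 and 3. The FOXO factor genes did not pass, with mean values of -0.03 for Foxo1 (adjusted p = 0.879 by limma) and -0.10 for Foxo3 (adjusted p = 0.879). Foxo3 was lowest in the IR hearts of replicate 3, at 9.85 FPKM in C57-IR and 6.97 FPKM in Slit2-IR.

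Among 29 other ligase genes of muscle, 1 rose and 0 fell, which is the share found over all genes (3.49%). Klhl40, for a muscle CUL3 adaptor that protects nebulin, was between 4.33 and 6.57 FPKM without IR and between 5.37 and 13.8 FPKM after it, so the groups overlapped (0.71, SE 0.17, adjusted p = 0.0488 by limma). The call was lost on leaving out any of 10 of the 12 libraries (adjusted p from 0.0611 to 0.118), all but C57-IR and Slit2-IR replicates 3. Fbxo40, an F-box gene of striated muscle, gave 0.09 (adjusted p = 0.699 by limma). Of the other lists no gene passed the adjusted threshold. The 26 tested of 27 E1 and E2 enzymes had 22 positive values with a median of 0.05, and 5 of them had an unadjusted p under 0.05, against 15.9% of all genes. The 8 SCF core and NEDD8 genes had a median of 0.07 (0 unadjusted), and the 14 autophagy receptor and ATG8 genes 0.04 (1 lower unadjusted), with Nbr1 at -0.11 (adjusted p = 0.495 by limma). The 9 tested of 10 NRF2 and KEAP1 genes had a median of 0.27, with 5 higher and 1 lower at the unadjusted threshold that 15.9% of all genes passed. All of these medians compare with 0.0036 over all genes. From the libraries numbered 2 and 3 alone, the mean IR calls of Bag3, Hspa8, Tnfaip3 and Irs2 held (adjusted p = 0.0114, 0.00322, 0.00571 and 0.028 by limma), and those of Otud1, Gadd45a and Klhl40 did not (adjusted p = 0.145, 0.0716 and 0.186). Within a genotype, Bag3 and Hspa8 then passed in C57BL/6J hearts (adjusted p = 0.0431 and 0.0119), and the calls were lost for Irs2 in both genotypes (0.113 and 0.215) and for Tnfaip3 in Slit2-Tg hearts (0.0864). In the comparisons between Slit2-Tg and C57BL/6J hearts and in the interaction, 0 genes of these lists passed the adjusted threshold.

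**Figure D4:**
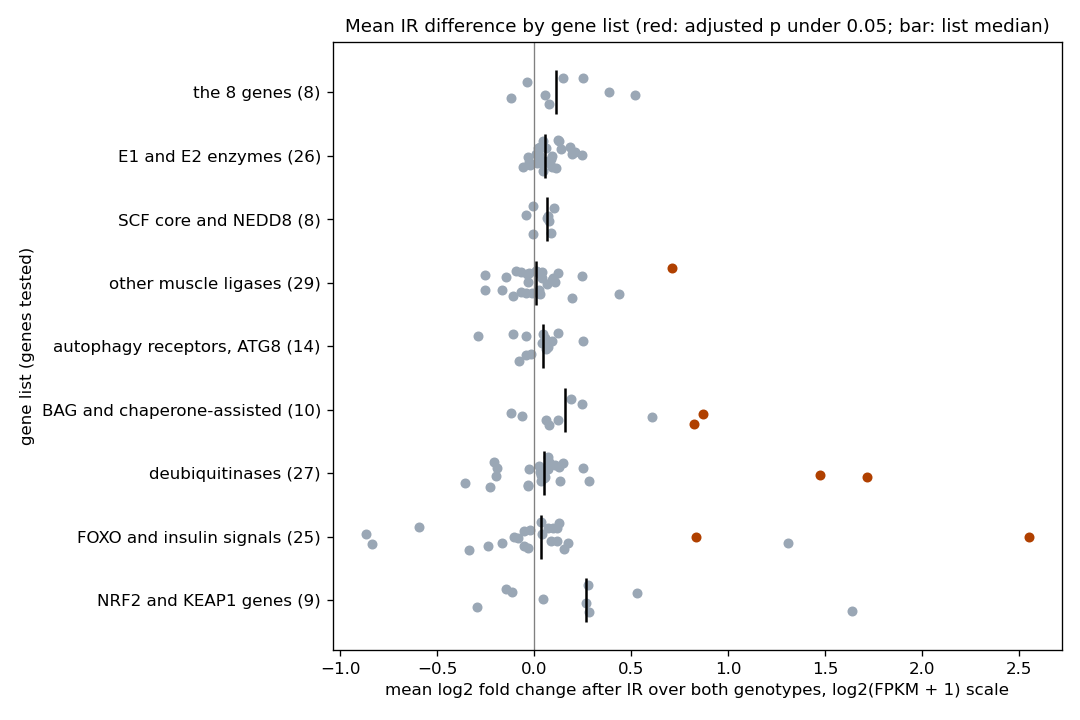
Mean log2 fold change after IR over both genotypes (x axis, log2(FPKM + 1) scale) for the genes of each list. Points are genes, red where the adjusted p was under 0.05, and bars are list medians. The 8 genes lie between -0.12 and 0.52, while Irs2, Tnfaip3 and Otud1 lie between 1.47 and 2.55.

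The genes most like each member over the 12 libraries were sought among 10187 protein-coding genes by Pearson's r of log2(FPKM + 1), as a description, since all genes share the same libraries. Ubb was most like Cebpb (r = 0.957, n = 12), Tceal9 (0.955) and Vim (0.950). Sqstm1 was most like Ftl1 (0.917), the ferritin light chain gene, and then Pink1 (0.883), the kinase of mitophagy, and Boc (0.879). Fbxo30 was most like Xirp1 (0.927), Tra2b (0.919) and Zfand6 (0.919). Trim55 followed Gfm1 (0.930), Me1 (0.928) and Polr2m (0.919), and Trim54 followed Ino80b (0.928), Auh (0.896) and Ubl7 (0.887). Stub1 was most like Spint2 (0.930), Selenow (0.928) and Mlf2 (0.926). The atrogenes had weaker partners, Fbxo32 with Wfikkn2 (0.882), Cdc42bpg (0.870) and Tspyl2 (0.867), and Trim63 with Srsf5 (0.812) and Bcl2l11 (0.805). None of the 8 genes was among another member's 3 closest.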

How the data were processed

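Libraries were made from total RNA of heart tissue with a NEBNext Ultra kit, 3 per group, which the labels call independent. The authors deposited FPKM values per gene. The submitters' processing notes name HISAT2 and build mm10, and the counter is not given in the sources used here. Multiplied by gene length, every deposited FPKM value was a whole number of reads (tolerance 0.01) in units fixed by median-of-ratios size factors, which gave the depth of each library. Values were compared as log2(FPKM + 1) with limma 3.58.1 (R 4.3.3, variance trend) in 1 fit of all 12 libraries and 4 groups. Genes entered the test with 10 or more reads (on the scale of the median library) in 3 or more libraries and a total of 15 or more, and p-values were adjusted by the Benjamini-Hochberg method over 15240 genes. A fold on this scale understates changes of low genes. On simulated data for the C57BL/6J comparison, 83.5% of 200 genes changed 4-fold were recovered among 15240, with 8 false calls. Smaller changes, such as those of the genes described here, were not simulated. The tables hold no columns of group comparisons.

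All 8 genes are described in every comparison. Of the lists, Rps27a, Bag3, Nbr1, Fbxo40, Foxo1 and Foxo3 are always named, and the others where the adjusted p was under 0.05. A few genes that these rules would name, and a list that rests on them, are not reported here. The members and lists were chosen with earlier results of these data known. Replicate numbers were taken as pairing the hearts where the deviations of all 3 same-numbered pairs from their group means correlated over 0.1, which held for Slit2-IR against Slit2-non-IR (correlations 0.29, 0.29 and 0.14) and Slit2-IR against C57-IR hearts (0.28, 0.15 and 0.36). The labels name no shared day or litter, so the pairing rests on these correlations. Tests were two-sided. Other pseudocounts, filters, scalings, limma-voom on the recovered reads, the replicate block and leaving out each library were tried. A fit of the libraries numbered 2 and 3 only was added after seeing the data.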

Additional observations from a re-analysis of the deposited data

How the results depend on the processing

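Over the 8 genes, 0 passed the adjusted threshold in each of the 6 comparisons under every pseudocount, filter, scaling, limma-voom and fit of only the groups compared. With the replicate block, 1 gene passed after IR in C57BL/6J hearts and 1 in the mean IR difference, in both cases Fbxo30 (log2 fold changes 0.71 and 0.52, adjusted p = 0.0353 and 0.0108 by limma), though the numbers were not taken as pairing C57BL/6J hearts, whose correlations were 0.30, 0.13 and 0.08; without IR between genotypes they were 0.32, 0.04 and 0.10. The block changed no other call of the 8 genes. Leaving out each library gave between 0 and 1 member passing in the mean IR difference, the 1 being Ubb without C57-IR replicate 1, and 0 elsewhere.

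Directions of small values turned under other scalings, which moved the median of all genes by at most 0.089 on the log2 scale. With equal totals outside mitochondrial genes, Fbxo32 after IR in C57BL/6J hearts was -0.04, Stub1 and Trim55 in the mean IR difference -0.015 and -0.036, Rps27a there -0.0118, the Trim63 interaction -0.04, and Stub1, Trim63 and Trim54 between genotypes without IR 0.0006, 0.059 and 0.0074. With equal upper quartiles, Fbxo32 after IR in C57BL/6J hearts was -0.0185, Trim55 in the mean -0.0001, Trim63 between genotypes after IR -0.0195 and its interaction -0.0115. Besides these scalings, the other pseudocount, filters, limma-voom, fits of only the groups compared, the replicate block and leaving out each library were counted. Over all of them, 63 of 944 values of the members turned sign and 3 crossed the threshold. Filters, those fits, the block and leaving out a library of a group not compared cannot change a log2 fold change. The 944 thus include values that could not turn sign, and the share does not measure how stable the signs were. Where leaving out 1 library turned a sign, the log2 fold changes lay as follows: after IR in C57BL/6J hearts between -0.066 and 0.070 for Stub1, -0.18 and 0.59 for Trim63, -0.040 and 0.26 for Trim55 and -0.24 and 0.39 for Fbxo32; after IR in Slit2-Tg hearts between -0.036 and 0.36 for Trim63, -0.25 and 0.062 for Trim54, -0.14 and 0.076 for Trim55 and -0.33 and 0.11 for Fbxo32; between genotypes without IR between -0.23 and 0.096 for Ubb, -0.11 and 0.0050 for Stub1, -0.21 and 0.18 for Trim63 and -0.21 and 0.091 for Trim54; between genotypes after IR between -0.11 and 0.41 for Ubb, -0.100 and 0.20 for Sqstm1, -0.45 and 0.32 for Trim63, -0.13 and 0.18 for Trim54, -0.18 and 0.12 for Trim55, -0.25 and 0.39 for Fbxo32 and -0.28 and 0.073 for Fbxo30; for the interaction between -0.25 and 0.048 for Sqstm1, -0.44 and 0.33 for Trim63, -0.072 and 0.26 for Trim54 and -0.50 and 0.14 for Fbxo32; for the mean IR difference between -0.014 and 0.37 for Trim63, -0.043 and 0.12 for Trim55, -0.17 and 0.14 for Fbxo32 and -0.22 and 0.093 for Foxo3. With only the libraries numbered 2 and 3, a comparison chosen after seeing the data, 0 of 8 genes passed the adjusted threshold in any of the 6 comparisons, and the values that turned sign were after IR in C57BL/6J hearts 0.055 for Stub1, -0.044 for Trim55 and -0.21 for Fbxo32, after IR in Slit2-Tg hearts -0.024 for Sqstm1, -0.012 for Trim63 and 0.0028 for Trim55, between genotypes without IR 0.094 for Ubb, 0.27 for Trim63, 0.019 for Trim54 and -0.0010 for Trim55, between genotypes after IR -0.042 for Ubb, -0.24 for Sqstm1, -0.14 for Trim54 and 0.046 for Trim55, for the interaction -0.14 for Ubb, -0.12 for Trim63, -0.16 for Trim54 and 0.047 for Trim55, for the mean IR difference -0.021 for Trim55. Over the other alternatives, the adjusted p of the called list genes in the mean IR difference reached 0.0405 for Bag3, 0.0173 for Hspa8, 0.0034 for Tnfaip3, 0.00895 for Irs2, 0.059 for Otud1, 0.0615 for Gadd45a and 0.118 for Klhl40. The cause of these shifts was not tested. At this n, members with the widest intervals (Trim63, Fbxo32) could hide changes of up to 1.81-fold and 1.62-fold in C57BL/6J hearts.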

Other observations

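Across the 12 libraries the 8 genes did not vary as 1 block. Trim63 and Fbxo32 varied together (Pearson's r = 0.66 over 12 libraries, 0.71 after subtracting group means), as did Ubb and Sqstm1 (0.67 and 0.61) and Sqstm1 and Fbxo30 (0.65 and 0.45). Stub1 and Trim54 gave 0.55 and 0.73, with a rank correlation (Spearman's rho) of 0.29. Ubb and Trim55 varied in opposite directions (-0.67 and -0.91 after subtracting group means), with a rho of -0.49. In Slit2-non-IR and C57-IR replicates 1, Ubb was at its lowest (170.4 and 190.3 FPKM) and Trim55 at its highest (28.8 and 32.7 FPKM). The part of these libraries in that correlation was not tested. The correlations are descriptions over libraries that share depth and scaling, with no test. C57-IR replicate 2 held the highest of 12 values for 3 of the 8 genes (Ubb, Trim63 and Fbxo30) and C57-IR replicate 3 the lowest for 3 (Trim63, Fbxo32 and Stub1). Slit2-IR replicate 1, the library with atrial markers at 1716 FPKM, held the highest for another 3 (Sqstm1, Stub1 and Fbxo32), and the part of those markers in these values was not tested.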
